A study of Mus musculus with 2 samples.

Results

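The members of the common gamma chain system were followed here by name, namely the receptor chains Il2ra, Il2rb, Il2rg, Il4ra, Il21r and Il15ra and the ligand Il15, 7 of the 32285 genes counted in the files. The members were taken by symbol as a family of receptors, and their unique molecular identifiers (UMIs, tags that each stand for 1 captured transcript) were summed over immune cell classes set by marker genes. PEP-WT mice were C57BL/6 mice with the wild type Ptpn22 gene. PEP-619WW mice were C57BL/6 mice edited with CRISPR/Cas9 so that both copies of Ptpn22 encode tryptophan in place of arginine at amino acid 619 of the phosphatase PEP, in every cell of the animal. All mice were 6 to 12 weeks old and were infected intravenously by 1000000 PFU of LCMV-cl13, the clone 13 virus, which sets up a lasting infection in mice. At 8 days after infection the spleen cells of 4 to 5 mice were pooled by genotype and sorted for live CD45+ cells, and transcripts were counted with the 10x Genomics 3' single cell assay. Uninfected mice were not analysed here, so each level describes infected animals of the 2 genotypes.

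The common gamma chain, the product of Il2rg, is a subunit of the receptors for IL-2, IL-4, IL-7, IL-9, IL-15 and IL-21, and it signals through the kinase JAK3. The beta chain encoded by Il2rb is shared by the IL-2 and IL-15 receptors, and the alpha chains encoded by Il2ra and Il15ra raise affinity for IL-2 or hold IL-15 on the surface of a presenting cell. The chains encoded by Il4ra and Il21r pair with the common chain to bind IL-4 and IL-21. In antiviral responses these cytokines are known for their part in the growth and survival of T cells, natural killer (NK) cells and B cells, and in the regulatory T cell lineage Il2ra is a defining gene.

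The members lie on 5 chromosomes (GRCm38 coordinates of the GENCODE annotation). Il2ra (2:11642807-11693193) and Il15ra (2:11705290-11734317) are neighbors on the plus strand of chromosome 2, with 12097 bases between them, and Il4ra (7:125552120-125579474) and Il21r (7:125603429-125633570) lie 23955 bases apart on the plus strand of chromosome 7. Il2rb (15:78479256-78495271), Il15 (8:82331632-82403222) and Il2rg (X:101264378-101268255) are on the minus strand. Il2rg overlaps the same-strand gene Gm20489, Il4ra the antisense gene Gm44876 and Il2ra the same-strand unclassified model Gm37881. The effect of these overlaps on the counts was not tested.

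Promoters are shown for Il2ra, Il15ra and Il4ra, the members with a promoter entry that differed most between Gzmb classes of CD8 T cells below. RefSeq promoter windows (GRCm38.p6, from 250 bases before to 50 bases after a start) were given for 5 of the 7 members, 6 windows in all because Il15ra has 2. Both strands were searched for 12 motifs. The STAT motif TTCNNNGAA was in 0 of the 6 windows and in 8.30% of the 32851 windows of all genes. The AP-1 motif TGANTCA was in 1 of the 6, a window of Il15ra at 30 bases before the start, and in 7.81% of all windows. Of the other motifs, CANNTG was in 4 of 6 (72.3% of all), GGAAGT in 2 (23.8%) and TGTGGT in 2 (16.8%), while GGGANNTCC (4.30%), a longer NF-kB motif (0.411%), GTGTGA (14.5%), the interferon response element (3.44%), the serum response CArG box (0.0639%), TGACGTCA (1.79%) and TATAAA (13.6%) were in 0 of the 6. The motif GGGANNTCC and the longer NF-kB motif share letters. Capitals below mark the TGANTCA match. These letters describe the windows and say nothing of binding, and the motif in capitals was chosen for print after the matches had been seen. The windows are chr2:11642542-11642841 for Il2ra, chr2:11705462-11705761 for Il15ra and chr7:125552021-125552320 for Il4ra, all on the plus strand and given 5′ to 3′.
Il2ra promoter: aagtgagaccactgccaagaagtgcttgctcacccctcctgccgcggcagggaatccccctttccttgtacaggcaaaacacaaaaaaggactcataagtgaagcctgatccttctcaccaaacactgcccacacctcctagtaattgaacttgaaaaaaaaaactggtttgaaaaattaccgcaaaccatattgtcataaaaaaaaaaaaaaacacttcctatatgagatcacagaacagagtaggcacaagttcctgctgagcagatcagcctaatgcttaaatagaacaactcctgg
Il15ra promoter: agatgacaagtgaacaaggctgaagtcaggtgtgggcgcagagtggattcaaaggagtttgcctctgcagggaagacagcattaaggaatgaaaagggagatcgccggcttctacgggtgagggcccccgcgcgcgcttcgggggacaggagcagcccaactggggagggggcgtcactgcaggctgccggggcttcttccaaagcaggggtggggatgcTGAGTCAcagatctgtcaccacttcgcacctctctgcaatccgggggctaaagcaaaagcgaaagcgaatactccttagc
Il4ra promoter: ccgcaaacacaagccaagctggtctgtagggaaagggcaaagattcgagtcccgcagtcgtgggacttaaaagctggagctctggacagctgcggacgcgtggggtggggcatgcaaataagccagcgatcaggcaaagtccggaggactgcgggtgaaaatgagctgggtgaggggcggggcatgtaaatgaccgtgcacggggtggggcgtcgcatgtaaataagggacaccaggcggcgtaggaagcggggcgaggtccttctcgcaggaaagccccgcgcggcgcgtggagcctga

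For each genotype 2 sets of counts were deposited, called run 1 and run 2 here, each from 1 library, and how the runs relate is not stated in the labels or the methods. Values come from run 1 unless run 2 is named. Run 1 held 14821 PEP-WT barcodes with 77916082 UMIs and 8576 PEP-619WW barcodes with 56745578 UMIs. Run 2 held 9539 and 11029 barcodes, the cell numbers that the study's methods give, with 70500076 and 55504449 UMIs. The labels name liver, a human T cell line and tumor infiltrating cells, while the protocol describes spleen. The liver gene Alb was at 0 UMIs in all 4 libraries. Run 2 PEP-WT stood apart: the B cell gene Cd79a was at 0.170 CPM (UMIs of a gene per 1000000 UMIs) against 65.5 to 838 in the other libraries, and the pigment cell gene Pmel was at 48.4 CPM against 0.449 to 2.45. Run 2 PEP-619WW also differed from run 1. Its Cd79a level was 65.5 CPM against 838 and 620, and the pigment cell genes Dct and Mlana were at 6.88 and 2.76 CPM. In run 1 PEP-WT and PEP-619WW, Dct was at 0.0642 and 0.0176 CPM and Mlana at 0.0642 and 0.035. Whether run 2 held the same tissue as run 1 cannot be told from the labels. Libraries shared 19 to 49 barcodes pairwise, at most 0.455% of a library. The mutation itself cannot be read from 3' counts.

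With 1 pooled library per genotype the spread between replicates is unknown and genotypes were not tested against each other. A level is the summed UMIs of a gene over the barcodes of a class, scaled to 1000000 UMIs of those barcodes. Its exact 95% Poisson interval, the exact interval of a ratio of levels and the binomial interval of a share cover counting error only. A gene with at least 30 UMIs over both groups counted as measured, and it counted as past the fold when the ratio was at least 1.5 in either direction and its interval left out 1. Levels were compared within a gene, never between genes, since 3' counts of different genes are captured unequally.

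CD8 T barcodes carried Cd3e and Cd8b1 and were split by granzyme B (Gzmb) into those with 0 UMIs, 487 in PEP-WT and 127 in PEP-619WW, and Gzmb-high barcodes with at least 3 UMIs, 791 and 727. CD4 T barcodes (Cd3e and Cd4 without Cd8b1) numbered 304 and 216, NK barcodes (Ncr1 without Cd3e) 77 and 37, and B barcodes (Cd79a and Ms4a1) 6937 and 3144. At least 2 of 5 other T cell genes were found in 92.9% or more of the barcodes of each T cell class, at least 2 of 5 B cell genes in 96.3% and 93.4% of B barcodes, and at least 2 of 5 NK genes in 87.0% and 86.5% of NK barcodes. The PEP-619WW NK barcodes also held 14902 CPM of 4 neutrophil genes against 1107 in PEP-WT, and 1622 against 435 CPM of monocyte and macrophage genes. Erythroid genes were at 7754 CPM in PEP-WT and 354 in PEP-619WW NK barcodes. The part of these in any NK value was not tested.

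The conventional dendritic cell (cDC) rule, Flt3 with at least 10 UMIs of H2-Aa, took 274 and 176 barcodes in run 1 whose markers went against the name. At least 2 of 5 B cell genes were in 66.8% and 66.5% of them, whereas any of 6 cDC genes was in 44.2% and 50.6%. These barcodes are called Flt3+ H2-Aa-high here. The same rule applied to run 2 PEP-619WW took 464 barcodes with at least 2 cDC genes in 57.3%, at least 2 of 5 monocyte and macrophage genes in 48.3% and at least 2 B cell genes in 2.59%. In run 1, 426 PEP-WT and 238 PEP-619WW barcodes met the rules of more than 1 class. No doublet caller was run, and levels without barcodes that carry a defining gene of another class are given beside some of the results.

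**Figure D1:**
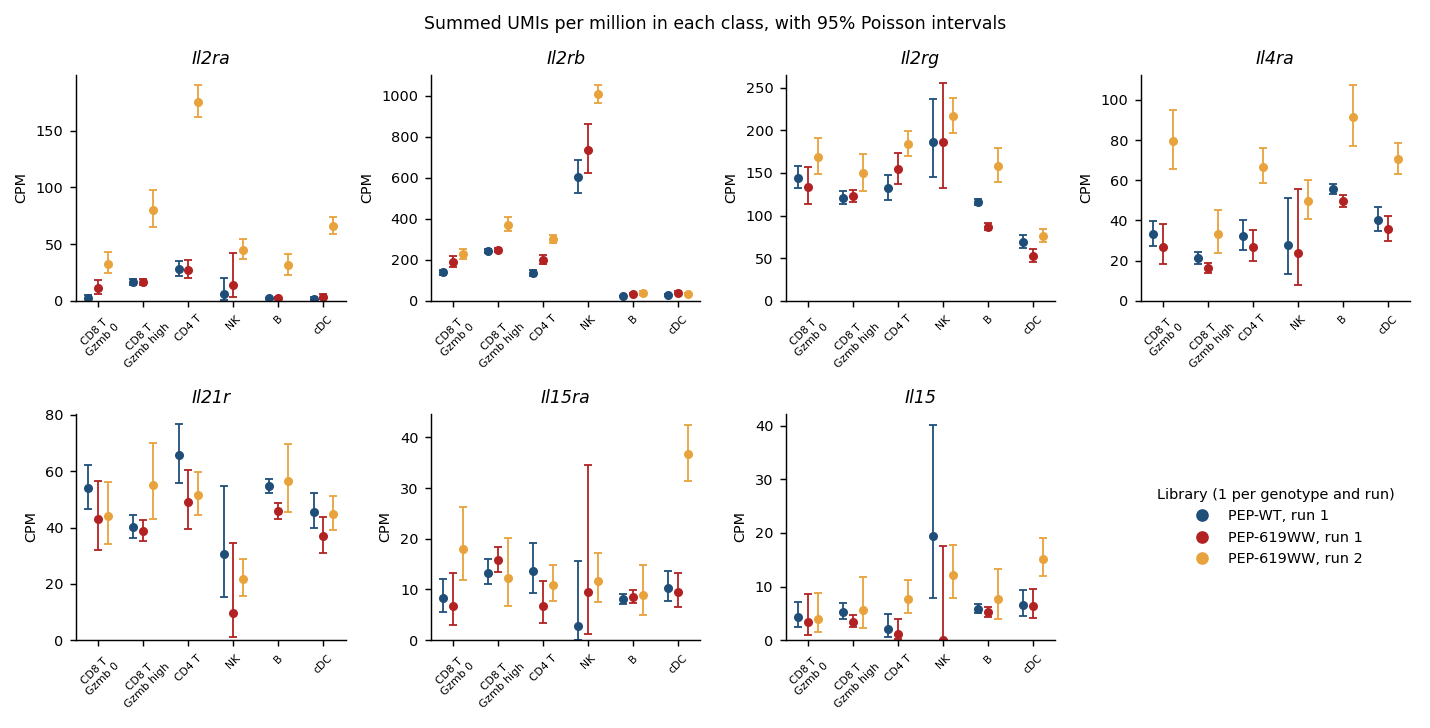
Level of each member (CPM, linear axis from 0) in the 6 classes of barcodes for run 1 PEP-WT, run 1 PEP-619WW and run 2 PEP-619WW; points are levels from summed UMIs of 1 library and bars are exact 95% Poisson intervals. Il2rb stood highest in NK barcodes in all 3 libraries (602, 737 and 1009 CPM), and Il2ra stood highest in CD4 T barcodes (27.6, 27.1 and 175.5 CPM); the Flt3+ H2-Aa-high rule is drawn as cDC.

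Il2rg, the shared chain, was found across all classes. In PEP-WT its level ran from 69.1 CPM in Flt3+ H2-Aa-high barcodes through 116 in B, 121 in Gzmb-high CD8 T, 132 in CD4 T and 144 in Gzmb-zero CD8 T to 187 in NK barcodes. In PEP-619WW the lowest was 52.7 CPM in Flt3+ H2-Aa-high barcodes, followed by 86.9 in B, and the T and NK classes lay between 123 and 187. Gzmb-high CD8 T barcodes (113.8 to 128.3 CPM in PEP-WT, 116.4 to 130.1 in PEP-619WW) lay below NK barcodes in both genotypes, below Gzmb-zero CD8 T barcodes in PEP-WT and below CD4 T barcodes in PEP-619WW without overlap of intervals. NK, CD4 T and Gzmb-zero CD8 T barcodes overlapped with their neighbors in this order. Flt3+ H2-Aa-high barcodes lay below B barcodes in both genotypes, and B barcodes below all T classes in PEP-619WW. Il2rg had a UMI in 34.8% and 30.9% of all run 1 barcodes, against 1.79% of 504 PEP-WT erythroid barcodes (median depths of 2832, 3293 and 1794 UMIs), which should lack it and show free RNA.

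Il2rb levels lay far apart between classes. PEP-WT levels were 602 CPM in NK, 243 in Gzmb-high CD8 T, 138 in Gzmb-zero CD8 T, 136 in CD4 T, 27.8 in Flt3+ H2-Aa-high and 23.0 in B barcodes. PEP-619WW levels were 737, 246, 190.4, 199.6, 39.6 and 34.1 CPM in the same classes. In both genotypes the NK interval lay above that of Gzmb-high CD8 T barcodes, which in turn lay above those of every other class. At least 1 Il2rb UMI was found in 85.7% and 86.5% of NK barcodes and in 77.5% and 86.7% of Gzmb-high CD8 T barcodes, against 0.397% of PEP-WT erythroid barcodes. Without barcodes that carry genes of another class, NK barcodes had 779 and 868 CPM and Gzmb-high CD8 T barcodes 333 and 359. With each barcode thinned to 1000 UMIs, the NK shares were 49.4% and 54.1% and the Gzmb-high shares 24.5% and 26.3%.

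In B barcodes the Il2rb level depended on barcodes with UMIs of other cell types. Among the 6368 PEP-WT and 2822 PEP-619WW B barcodes without Cd3e, Ncr1 or Flt3, Il2rb was at 7.12 (6.15 to 8.20) and 13.7 (11.9 to 15.7) CPM. Background in PEP-WT erythroid barcodes was 2.84 CPM from 3 UMIs. Of the Flt3+ H2-Aa-high barcodes, 57 and 46 had no Cd3e, Cd79a, Ms4a1 or Ncr1, and these held 0 and 7 UMIs of Il2rb. The count of 0 allows up to 4.23 CPM, and the 7 UMIs, all in 1 barcode, gave 12.8 CPM.

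Il2ra, the high affinity chain of the IL-2 receptor, was sparse outside T cells in run 1. In PEP-WT it was at 27.6 CPM (21.4 to 35.1) in CD4 T, 16.8 (14.2 to 19.6) in Gzmb-high CD8 T, 5.58 in NK (2 UMIs), 2.88 in Gzmb-zero CD8 T (10 UMIs), 2.33 in B and 1.68 in Flt3+ H2-Aa-high barcodes (8 UMIs). PEP-619WW levels were 27.1, 16.2, 14.4 (3 UMIs), 10.95 (13 UMIs), 2.56 and 3.34 CPM (12 UMIs). CD4 T barcodes were thus highest and Gzmb-high CD8 T barcodes next among well-counted classes in both genotypes. A few CD4 T barcodes with Foxp3 held much of this: 11 in PEP-WT had 21 of the 67 UMIs, and 16 in PEP-619WW had 24 of the 49. The other CD4 T barcodes were at 20.4 CPM (14.9 to 27.2) in PEP-WT and 14.8 (9.57 to 21.8) in PEP-619WW, with intervals that overlapped those of Gzmb-high CD8 T barcodes. PEP-WT erythroid barcodes held 0 UMIs of Il2ra.

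Il4ra had another order. It was highest in B barcodes of both genotypes, with 55.6 CPM (53.2 to 58.1) in PEP-WT and 49.5 (46.6 to 52.6) in PEP-619WW, followed by Flt3+ H2-Aa-high barcodes with 40.4 and 35.7. T and NK classes lay between 21.3 and 33.1 CPM in PEP-WT and between 16.2 and 27.0 in PEP-619WW, with Gzmb-high CD8 T barcodes lowest in both. Where barcodes with genes of another class were left out, the small Flt3+ H2-Aa-high class took first place with 67.6 and 64.1 CPM, and its interval overlapped that of B barcodes at 62.1 and 58.9 CPM. B barcodes of run 2 PEP-619WW were again highest at 91.4 CPM and Gzmb-high CD8 T barcodes lowest at 33.3, each with an interval that overlapped its neighbor's.

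Il21r levels were closer together. CD4 T barcodes were first in both genotypes, with 65.6 CPM in PEP-WT and 49.2 in PEP-619WW, B barcodes had 54.8 and 45.8, and Gzmb-zero CD8 T barcodes 54.1 and 43.0. Gzmb-high CD8 T barcodes had 40.1 and 38.8 CPM. NK barcodes had the lowest levels, 30.7 CPM from 11 UMIs and 9.57 from 2 UMIs, and in run 2 PEP-619WW, with 466 NK barcodes, NK was lowest again at 21.5 CPM. The intervals of all neighbors in this order overlapped in both genotypes of run 1.

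Il15ra and its ligand Il15 had low levels in lymphocytes. Il15ra ranged from 8.10 to 13.6 CPM in the PEP-WT classes other than NK and from 6.64 to 15.8 in PEP-619WW, with 1 and 2 UMIs in NK barcodes. Il15 ranged from 2.06 to 6.53 CPM and from 1.11 to 6.41 in the same classes, near the 3.79 CPM of 4 UMIs in PEP-WT erythroid barcodes. NK barcodes held 7 UMIs of Il15 in PEP-WT (19.5 CPM) and 0 in PEP-619WW, a count that allows up to 14.4 CPM by the limit of 3 counts used for every 0 here. Both genes of run 2 PEP-619WW were highest in the cDC class: Il15ra at 36.7 CPM (31.5 to 42.5), above every other class, and Il15 at 15.2 CPM (11.9 to 19.1), next to 12.2 in NK.

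Il4ra, Il15ra and Il15 were also read in barcodes outside the 6 classes. In run 1 PEP-WT, 791 such barcodes carried Csf1r, the macrophage growth factor receptor gene, and 657 had at least 10 UMIs of the neutrophil gene S100a8. Il4ra was at 70.3 and 76.9 CPM there, Il15ra at 26.4 and 26.6 and Il15 at 20.3 and 37.0. In run 1 PEP-619WW the corresponding levels were 62.3 and 71.5 for Il4ra, 32.3 and 18.8 for Il15ra and 16.8 and 18.3 for Il15. Lymphocyte classes of run 1 other than NK had at most 55.6, 15.8 and 5.85 CPM of these 3 genes. Run 2 differed for Il15ra, which was at 7.17 and 12.7 CPM in these groups of PEP-619WW, below its cDC barcodes, and at 2.88 and 4.07 in PEP-WT.

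**Figure D2:**
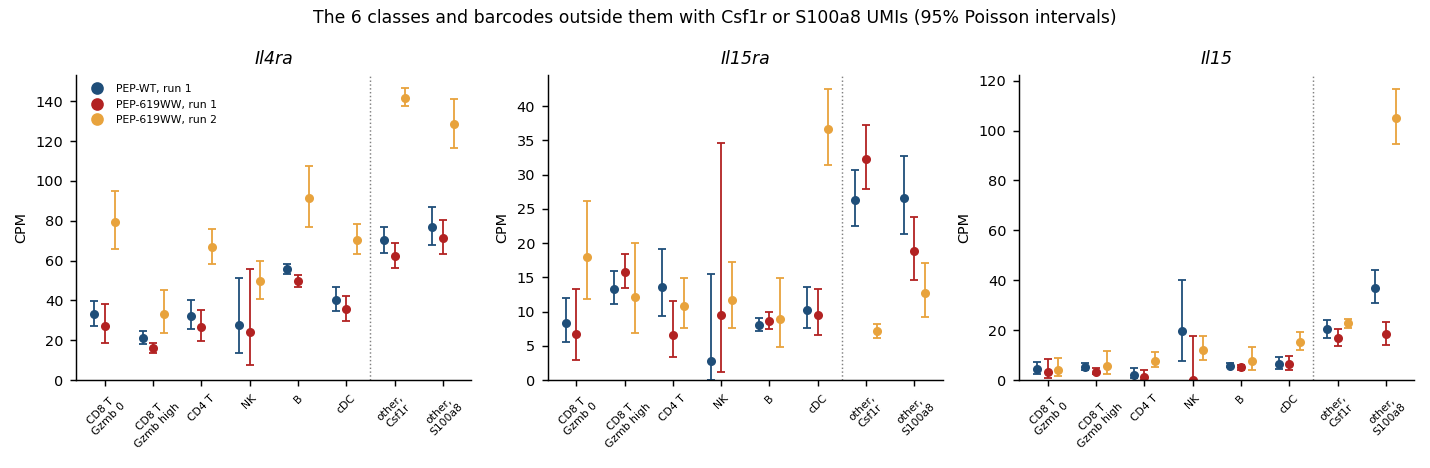
Levels of Il4ra, Il15ra and Il15 (CPM, linear axis from 0) in the 6 classes and in barcodes outside them with at least 1 UMI of Csf1r or at least 10 UMIs of S100a8, for run 1 PEP-WT, run 1 PEP-619WW and run 2 PEP-619WW; points are levels of 1 library and bars are exact 95% Poisson intervals. Il4ra in both outside groups (62.3 to 142 CPM) lay above the highest class of the same library in each of the 3 libraries.

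Of the 7 members, 5 had the same highest class in both genotypes of run 1: CD4 T for Il2ra and Il21r, NK for Il2rb and Il2rg, and B for Il4ra. For Il2rg and Il21r the interval of the highest class overlapped that of the next class in both genotypes. The share of all genes with a shared highest class was not computed. Il15ra was highest in CD4 T barcodes of PEP-WT and Gzmb-high CD8 T barcodes of PEP-619WW, and Il15 in NK and Flt3+ H2-Aa-high barcodes, all with overlapping intervals. In 1 random thinning of each barcode to 1000 UMIs, which left few UMIs of the sparse members, 2 members had a shared highest class by level. The highest class in run 2 PEP-619WW was again CD4 T for Il2ra, NK for Il2rb and Il2rg and B for Il4ra, while Il21r was highest in B (56.5 CPM) and not in CD4 T barcodes (51.7). Intervals of the highest and the next class overlapped there for Il2rg, Il4ra and Il21r.

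Genes with the most similar pattern were ranked by Pearson correlation of log2(CPM + 10) over the 12 class levels of run 1 (6 classes in 2 genotypes), among 10760 genes; the points share libraries, depth and overlapping barcodes, so the values are descriptive. For Il2rb they were Sytl3 (r = 0.99), AW112010 (0.99) and the integrin gene Itgal (0.98). The closest to Il2rg were the GTPase genes Gimap8 (0.97), Gimap9 (0.96) and Gimap4 (0.96), and to Il4ra Sh3bp5 (0.96), the transcription factor gene Bach2 (0.95) and Pcmtd1 (0.95). Il2ra was closest to Wdyhv1 (0.96), Btbd19 (0.92) and Stk26 (0.91). The first genes for Il21r, Il15ra and Il15 were Mettl13 (0.95), Hsd17b7 (0.90) and Uap1l1 (0.94). Between members, Il2rb and Il2rg had r = 0.81 and Il2rb and Il4ra r = -0.80.

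Il2ra and Il2rb, the alpha and beta chains of the high affinity IL-2 receptor, were counted in the same barcodes. Of CD4 T barcodes with Il2ra, 18 of 22 in PEP-WT, 18 of 21 in PEP-619WW and 148 of 167 in run 2 PEP-619WW also had Il2rb, against 8.76, 13.6 and 116.5 from the product of the single shares. In Gzmb-high CD8 T barcodes the counts were 68 of 85 and 96 of 112, against 65.9 and 97.1 from the product. Deeper barcodes detect more of both genes, which the product does not allow for. Il15 and Il15ra shared 35 of the 193 Il15 barcodes in PEP-WT B cells and 16 of 97 in PEP-619WW, against 7.04 and 4.66.

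The first comparison asked how the members differed between PEP-619WW and PEP-WT within a class, a question the study posed for immune cells at large. Of the 42 pairs of member and class, 33 were measured and 1 was past 1.5-fold, Il15ra in CD4 T barcodes. It had 33 UMIs in PEP-WT (13.6 CPM) and 12 in PEP-619WW (6.64 CPM), a log2 ratio of -1.04 (-2.13 to -0.05). Among CD4 T barcodes without a defining gene of another class the levels were 15.7 CPM (20 UMIs) and 5.56 CPM (7 UMIs), below the minimum count. Without the 5% of barcodes with the most UMIs the interval ran from -2.02 to 0.41. The mean of each barcode's own CPM gave a log2 ratio of 0.02, for which no interval of its own was computed.

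Among all measured genes the share past the fold was 7.97% in Gzmb-zero CD8 T, 8.92% in Gzmb-high CD8 T, 13.5% in CD4 T, 12.6% in NK, 9.15% in B and 10.5% in Flt3+ H2-Aa-high barcodes. The members' counts were 0 of 5, 0 of 7, 1 of 6, 0 of 2, 0 of 7 and 0 of 6 in the same order, near or below this background. Medians of the members' log2 ratios lay between -0.30 and 0.14, beside medians between -0.10 and 0.03 over all measured genes.

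**Figure D3:**
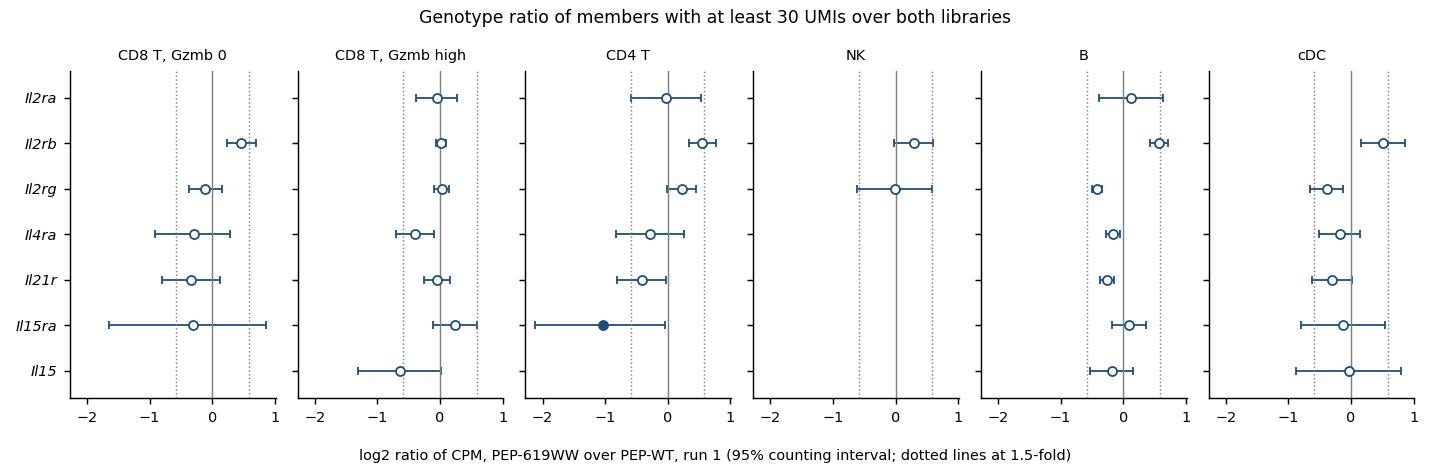
Log2 ratio of PEP-619WW over PEP-WT in run 1 for each member with at least 30 UMIs in a class, with exact 95% counting intervals; filled points are past 1.5-fold with an interval that leaves out 0. Only Il15ra in CD4 T barcodes (-1.04) is filled, while Il2rb lies at 0.46 to 0.57 in 4 classes and at 0.02 in Gzmb-high CD8 T barcodes.

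Il2rb was higher in PEP-619WW in 4 classes, all below the fold. PEP-619WW was higher by a log2 ratio of 0.46 (0.23 to 0.69) in Gzmb-zero CD8 T, 0.55 (0.33 to 0.77) in CD4 T, 0.57 (0.42 to 0.72) in B and 0.51 (0.16 to 0.86) in Flt3+ H2-Aa-high barcodes. The last of these came from 132 and 142 UMIs, of which 0 and 7 were in barcodes without genes of another class. In NK barcodes the ratio was 0.29 (-0.02 to 0.60). Gzmb-high CD8 T barcodes, which hold most of the Il2rb UMIs among T cells, had 243 and 246 CPM, a log2 ratio of 0.02 (-0.07 to 0.10). Such a set of intervals on the same side of 0 was common here: 26.4% of the 2674 genes measured in all 6 classes had at least 4 of 6 on the same side.

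The B cell value for Il2rb depended on the choice of barcodes. Without barcodes that carry Cd3e, Ncr1 or Flt3 the levels fell to 7.12 and 13.7 CPM while the log2 ratio was 0.94 (0.66 to 1.23), past the fold. It was also past the fold under 5 other settings: totals without immunoglobulin, hemoglobin, mitochondrial and ribosomal protein genes, removal of the deepest 5% of barcodes, fewer than 10 UMIs of Mt2, the mean of each barcode's own CPM, and thinning. Elsewhere Il2rb was past the fold in Gzmb-zero CD8 T barcodes without the deepest 5% and in Flt3+ H2-Aa-high barcodes with the reduced totals. In CD4 T barcodes it was so with fewer than 10 UMIs of Mt2, a limit the study set for its T cells. The share of all genes past the fold was not computed under these settings. Gzmb-zero CD8 T barcodes of the genotypes also differed in Mki67, a gene of dividing cells, at 158 CPM in PEP-WT and 236 in PEP-619WW. Markers of other cell types moved with genotype too. In Gzmb-zero CD8 T barcodes 5 monocyte and macrophage genes summed to 568 and 1403 CPM, 4 neutrophil genes to 1500 and 3445 and 4 erythroid genes to 911 and 105. In B barcodes the neutrophil genes summed to 1235 and 2545 CPM, 4 plasma cell genes to 3952 and 6064 and the erythroid genes to 2461 and 347. In CD4 T barcodes the monocyte and macrophage genes summed to 794 and 316 CPM, the neutrophil genes to 404 and 1359 and the erythroid genes to 1540 and 103, and Cd44, a gene of activated T cells, was in 36.2% and 54.6% of barcodes. In Flt3+ H2-Aa-high barcodes the plasma cell genes summed to 3922 and 6127 CPM, the neutrophil genes to 2011 and 466 and the erythroid genes to 1286 and 89.4. The part of these in the Il2rb differences was not tested.

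An interval that leaves out 0 is a looser criterion than the fold. It was met in either direction by 15.1% of measured genes in Gzmb-zero CD8 T, 34.4% in Gzmb-high CD8 T, 26.4% in CD4 T, 16.7% in NK, 45.1% in B and 28.7% in Flt3+ H2-Aa-high barcodes. The members meeting it were 1 of 5, 1 of 7, 3 of 6, 0 of 2, 4 of 7 and 2 of 6. Apart from Il2rb, all of them had lower levels in PEP-619WW in the classes concerned, including Il15ra in CD4 T barcodes, given above. For Il2rg the classes were B barcodes, with 116 against 86.9 CPM and a log2 ratio of -0.42 (-0.50 to -0.34), and Flt3+ H2-Aa-high barcodes, with -0.39 (-0.66 to -0.13). Il4ra was lower in Gzmb-high CD8 T barcodes, 21.3 against 16.2 CPM (-0.39, -0.70 to -0.09), and in B barcodes (-0.17, -0.28 to -0.06). Il21r was lower in CD4 T barcodes, 65.6 against 49.2 CPM (-0.41, -0.81 to -0.03), and in B barcodes (-0.26, -0.37 to -0.15). None reached 1.5-fold. Without barcodes that carry genes of another class, Il2rg in Flt3+ H2-Aa-high barcodes was at 76.1 and 69.6 CPM (log2 ratio -0.13). Under that setting Il21r in CD4 T barcodes was at 75.5 (61.2 to 92.2) and 58.8 (46.2 to 73.8) CPM. Il4ra in B barcodes was at 62.1 (59.1 to 65.1) and 58.9 (55.2 to 62.9). Il4ra in Gzmb-high CD8 T barcodes was at 15.5 and 10.6, Il21r in B barcodes at 55.1 and 49.2 and Il2rg in B barcodes at 125 and 92.2. The intervals of the levels overlapped in all of these but Il2rg in B barcodes. Overlap of levels is a harsher rule than the interval of a ratio. It therefore does not show which of these ratios still had an interval that left out 0.

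Il2ra in Gzmb-zero CD8 T barcodes had too few UMIs to be measured, 10 in PEP-WT and 13 in PEP-619WW, although its levels of 2.88 and 10.95 CPM gave a log2 ratio of 1.93 (0.63 to 3.28). In Gzmb-high CD8 T and CD4 T barcodes, where it was better counted, the ratios were -0.05 (-0.38 to 0.28) and -0.03 (-0.59 to 0.52). Il15 in Gzmb-high CD8 T barcodes was at 5.29 CPM in PEP-WT and 3.39 in PEP-619WW, with an interval of -1.31 to 0.02.

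Run 2 could hardly be used for this comparison, since its PEP-WT library held 2 to 48 barcodes per class. There 6 pairs were past the fold, none of them Il15ra in CD4 T barcodes. By class they were 0 of 5 measured members in Gzmb-zero CD8 T, 2 of 5 in Gzmb-high CD8 T, 1 of 6 in CD4 T, 1 of 5 in NK, 0 of 5 in B and 2 of 7 in cDC barcodes, beside 8.69%, 10%, 10.2%, 7.96%, 7.94% and 16.3% of all measured genes. Il2ra was at 21.5 CPM (4 UMIs) and 80.4 in Gzmb-high CD8 T barcodes, and Il4ra at 86.0 (16 UMIs) and 33.3. Il2rg was at 113 and 184 CPM in CD4 T and at 29.5 and 76.5 in cDC barcodes. Il2rb was at 590 CPM in 2 PEP-WT NK barcodes and 1009 in 466 of PEP-619WW, and in cDC barcodes at 0 UMIs, which allows up to 6.32 CPM, and 33.3 CPM.

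The second comparison set Gzmb-high against Gzmb-zero CD8 T barcodes within each library. Gzmb chose the barcodes and is no result. The Gzmb-zero barcodes more often held Tcf7, a gene of naive and stem-like T cells, at 77.8% and 59.8% of barcodes against 8.98% and 7.70% of Gzmb-high barcodes, and their median depth was 4865 and 6296 UMIs against 7521 and 9170.

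In PEP-WT, Il2ra was at 2.88 CPM without Gzmb and 16.8 in Gzmb-high barcodes, a log2 ratio of 2.54 (1.62 to 3.63). Il2rb was at 138 and 243 CPM, a log2 ratio of 0.82 (0.67 to 0.96). Il15ra went from 8.34 to 13.3 CPM (0.68, 0.08 to 1.32), and Il4ra from 33.1 to 21.3 CPM (-0.64, -0.98 to -0.29). These 4 of 7 members, 3 higher and 1 lower, were past the fold, beside 19% of all measured genes. The remaining members were Il2rg at -0.26 (-0.41 to -0.10), Il21r at -0.43 (-0.69 to -0.17) and Il15 at 0.29 (-0.57 to 1.24).

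In PEP-619WW, 2 of 7 members were past the fold beside 11.3% of all genes. Il15ra was at 6.74 CPM (8 UMIs) and 15.8 CPM (163 UMIs), a log2 ratio of 1.23 (0.22 to 2.46), and Il4ra at 27.0 and 16.2 CPM, a log2 ratio of -0.74 (-1.29 to -0.14). Il2ra, with 10.95 and 16.2 CPM, had a ratio of 0.56 (-0.25 to 1.502), and Il2rb, with 190.4 and 246 CPM, had 0.37 (0.17 to 0.57). Whether the contrast differed between the genotypes was not tested. Il15ra higher and Il4ra lower were thus the 2 of 7 members past the fold in the same direction in both genotypes, beside 5.45% of all measured genes. Without barcodes that carry genes of another class, Il15ra in PEP-WT was at 9.92 and 14.3 CPM, no longer past the fold. In those barcodes Il2rb was at 165.8 and 333 CPM in PEP-WT (log2 ratio 1.01, 0.83 to 1.19) and had a log2 ratio of 0.79 (0.54 to 1.05) in PEP-619WW, past the fold in both, so Il2rb took the place of Il15ra beside Il4ra.

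In run 2 PEP-619WW, with 245 Gzmb-zero and 92 Gzmb-high barcodes, 3 members were past the fold beside 18.6% of all genes. Il2ra was at 32.7 and 80.4 CPM (log2 ratio 1.30, 0.79 to 1.82), Il2rb at 229 and 372 (0.70, 0.50 to 0.91) and Il4ra at 79.4 and 33.3 (-1.25, -1.80 to -0.73). Il15ra pointed the other way there, with 18.0 and 12.2 CPM (-0.56, -1.58 to 0.40). Foxp3 was in 19.6% of these Gzmb-high barcodes and in under 1% of those of run 1, and its part in the Il2ra value was not tested. Il4ra was therefore lower in Gzmb-high barcodes in all 3 of these libraries, and Il2ra and Il2rb were higher, past the fold in 2 of 3.

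**Figure D4:**
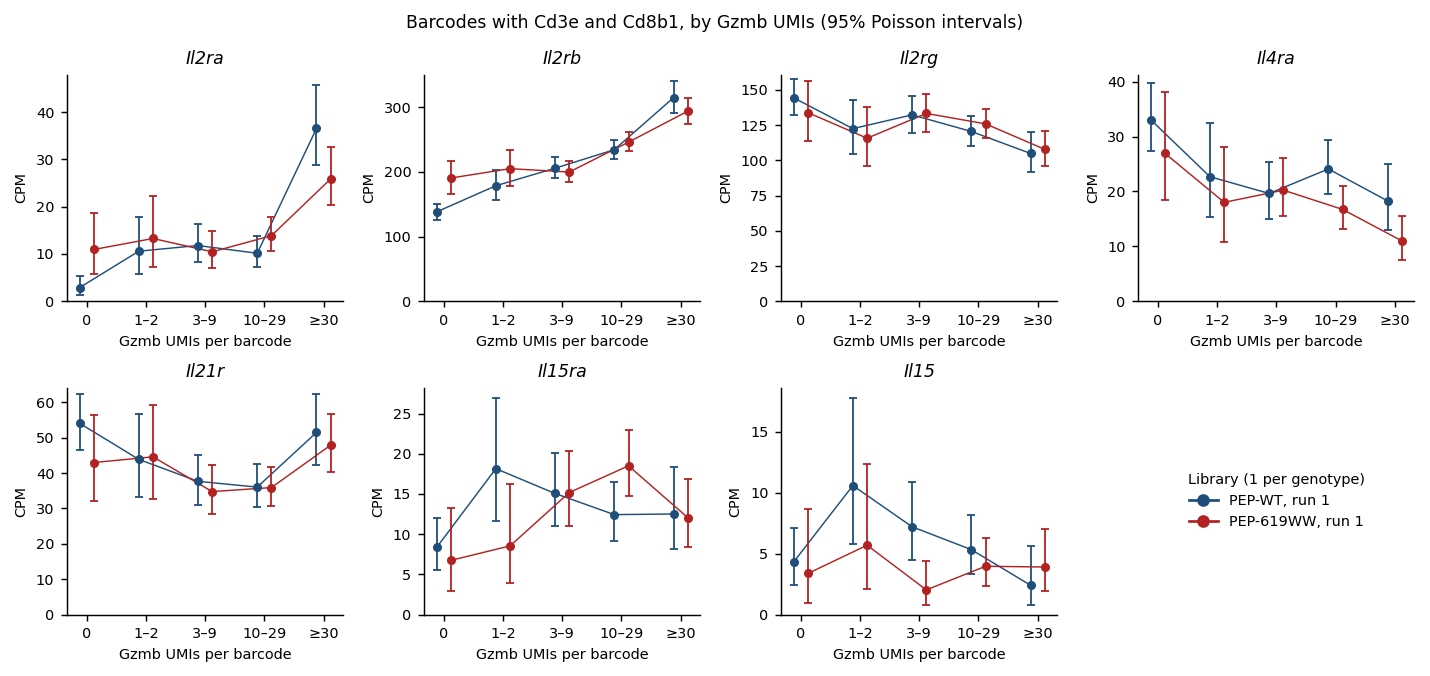
Levels of the 7 members (CPM, linear axis from 0) in run 1 CD8 T barcodes by Gzmb UMIs (0, 1 to 2, 3 to 9, 10 to 29, 30 or more), for PEP-WT and PEP-619WW; points are levels of 1 library and bars are exact 95% Poisson intervals. Il2rb is highest in the last step of both genotypes (315 and 294 CPM), as is Il2ra (36.6 and 25.9 CPM).

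In finer steps of Gzmb, Il2rb levels in PEP-WT were 138, 179, 206, 234 and 315 CPM from 0 UMIs to 30 or more, and in PEP-619WW 190.4, 205, 199.7, 246 and 294 CPM. Il2ra was at 2.88, 10.6, 11.8, 10.2 and 36.6 CPM in PEP-WT and at 10.95, 13.3, 10.5, 13.9 and 25.9 CPM in PEP-619WW. On the linear scale its largest gap lay at the last step in both genotypes. As a ratio, the first step in PEP-WT (2.88 to 10.6 CPM) was about as large as the last (10.2 to 36.6). In run 2 PEP-619WW, with 4 steps up to 29 UMIs, Il2ra was at 32.7, 92.9, 66.5 and 74.8 CPM, with the largest gap at the first step. Il4ra was lower in every step with Gzmb than in the step without, at 18.3 to 24.1 against 33.1 CPM in PEP-WT and 11 to 20.2 against 27.0 in PEP-619WW. Il15ra was at 8.34, 18.2, 15.1, 12.4 and 12.5 CPM in PEP-WT, highest at 1 to 2 UMIs of Gzmb, and at 6.74, 8.54, 15.2, 18.5 and 12.1 in PEP-619WW, highest at 10 to 29, with intervals that overlapped between most steps. Median depth went from 4865 to 13692 UMIs and from 6296 to 14810 UMIs from the first to the last step, and its part in these values was not tested.

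Barcodes of a class were then split by a single gene of known meaning, with levels on each side. Splits by Foxp3 and Xcr1 were planned, and those by Mki67, Fcer2a, Cxcr5 and Cacnb3 were added after values had been seen. The Foxp3 split, which marks regulatory T cells, separated Il2ra in CD4 T barcodes. With Foxp3 and without it, Il2ra was at 125 and 20.4 CPM in PEP-WT (11 and 293 barcodes), 204 and 14.8 in PEP-619WW (16 and 200) and 240.5 and 84.3 in run 2 PEP-619WW (170 and 217). The log2 ratios were 2.62 (1.80 to 3.39), 3.79 (2.92 to 4.66) and 1.51 (1.23 to 1.81). Foxp3 was in 3.62% and 7.41% of run 1 CD4 T barcodes and 43.9% of those of run 2 PEP-619WW, the library with 175.5 CPM of Il2ra in CD4 T barcodes.

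Il2rb was also higher in Foxp3 barcodes of all 3 libraries, at 245 against 128, 391 against 186 and 341 against 247 CPM. Il2rg was lower with Foxp3 in PEP-WT, at 77.6 against 136.5 CPM (log2 ratio -0.82, -1.74 to -0.02), and at 187 against 152 in PEP-619WW and 188 against 179.6 in run 2, with intervals that took in 0. Il21r was at 119 against 61.6 and 110.5 against 44.9 CPM in run 1 and at 52.8 against 50.04 in run 2. Il4ra, Il15ra and Il15 had at most 9 UMIs in the Foxp3 barcodes of run 1. Barcodes with Cxcr5, a gene of follicular helper T cells, had 107 CPM of Il21r against 54.9 without it in PEP-WT, and 58.9 against 47.4 in PEP-619WW, where the interval of the log2 ratio ran from -0.54 to 1.09.

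**Figure D5:**
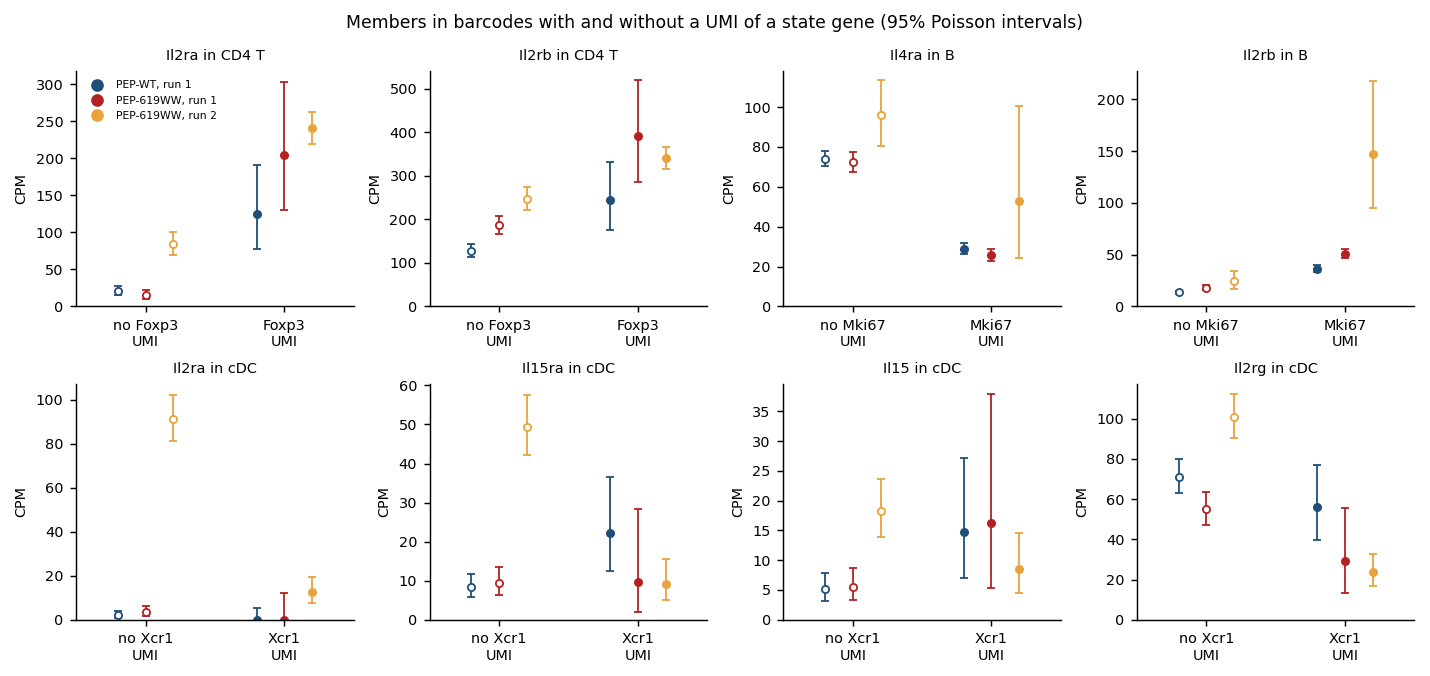
Levels of named members (CPM, linear axis from 0) on either side of a split by 1 gene: Foxp3 in CD4 T, Mki67 in B and Xcr1 in Flt3+ H2-Aa-high barcodes (drawn as cDC), for run 1 PEP-WT, run 1 PEP-619WW and run 2 PEP-619WW; points are levels of 1 library and bars are exact 95% Poisson intervals. Il2ra lies higher with Foxp3 in all 3 libraries (125, 204 and 240.5 against 20.4, 14.8 and 84.3 CPM).

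In CD8 T cells, Mki67 separated the shared chains. Among Gzmb-high barcodes, those with Mki67 had less Il2rg, at 103 against 169.7 CPM in PEP-WT and 102 against 172 in PEP-619WW, and less Il2rb, at 229 against 282 and 221 against 302 CPM. In run 2 PEP-619WW the values were 139.8 against 182 CPM for Il2rg, with an interval that took in 0, and 337 against 492 for Il2rb. The Mki67 barcodes were also deeper, with a median of 11319 UMIs against 4762 in PEP-WT, and the part of depth in these values was not tested. Shares of barcodes with a UMI went the other way in run 1. For Il2rg they were 70.98% against 58.27% in PEP-WT and 78.24% against 69.51% in PEP-619WW. For Il2rb they were 84.15% against 70.34% and 92.35% against 81.65%.

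B barcodes were split by Mki67 too, and the share of all genes that differed across this split was not computed. Il4ra, the IL-4 receptor chain, was at 28.9 against 74.0 CPM in PEP-WT and 25.7 against 72.4 in PEP-619WW, Il2rg at 62.4 against 153 and 53.2 against 119, and Il21r at 38.1 against 66.2 and 30.2 against 60.7. Il2rb was on the other side, at 36.5 against 13.7 and 51.1 against 17.9 CPM. In B barcodes without Cd3e, Ncr1 or Flt3 the same directions were seen: Il4ra at 29.9 against 76.2 and 28.6 against 76.5 CPM, Il2rg at 55.4 against 155 and 47.8 against 118, and Il2rb at 11.6 against 5.18 and 22.2 against 8.76. The log2 ratios of Il2rb there were 1.16 (0.74 to 1.58) and 1.34 (0.93 to 1.76). Median depth was 12892 UMIs with Mki67 and 2598 without in PEP-WT B barcodes, and the part of depth in these values was not tested.

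B barcodes with Fcer2a, the low affinity IgE receptor gene of follicular B cells, had more Il21r than those without, at 78.5 against 49.3 CPM in PEP-WT and 74.3 against 42.8 in PEP-619WW. In run 2 PEP-619WW the values were 46.4 and 64.4, with an interval of the log2 ratio from -1.15 to 0.18. Fcer2a itself was at 48.6 CPM in PEP-WT B barcodes and 22.6 in those of PEP-619WW.

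The cDC barcodes of run 2 PEP-619WW were split by Xcr1 as well. Those with Xcr1, a gene of the cDC1 lineage (127 barcodes), had less Il15ra and Il15 than those without (337), at 9.21 against 49.4 CPM and 8.56 against 18.3 CPM. Il2ra was at 12.5 against 91.2 CPM, Il2rg at 23.7 against 101 and Il21r at 14.5 against 58.8. In run 1 PEP-WT, Il15ra pointed the other way, at 22.1 against 8.35 CPM (log2 ratio 1.41, 0.42 to 2.32), and in PEP-619WW it was at 9.74 (3 UMIs) against 9.45. Il15 pointed the other way in run 1 too, at 14.8 against 5.16 CPM in PEP-WT (10 and 21 UMIs) and 16.2 against 5.49 in PEP-619WW (5 and 18 UMIs). Among run 1 barcodes without Cd3e, Cd79a, Ms4a1 or Ncr1 the direction was the same, at 19.8 against 6.57 CPM in PEP-WT (5 and 3 UMIs) and 28.4 against 9.87 in PEP-619WW (4 and 4 UMIs), with intervals that took in 0. Il15ra in those PEP-WT barcodes was at 11.9 against 13.1 CPM (log2 ratio -0.15, -2.78 to 2.08), an interval too wide to give a direction.

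Cacnb3, a gene known from mature dendritic cells, marked the high side in run 2 PEP-619WW. The 161 barcodes with it had 86.6 CPM of Il15ra against 6.05 in the 303 without, 29.04 of Il15 against 6.72, 124 of Il2ra against 30.9 and 71.8 of Il21r against 28.2. Among barcodes without Cd3e, Cd79a, Ms4a1 or Ncr1 Il2ra was at 109.5 against 11.8 CPM, a larger ratio, and Il15ra at 99.5 against 7.32. In the 48 cDC barcodes of run 2 PEP-WT, none of which carried those 4 genes, Il2ra was at 114 CPM in the 21 with Cacnb3 (19 UMIs) and 6.49 in the 27 without (2 UMIs), and Il15ra at 84.0 (14 UMIs) and 6.49 (2 UMIs). Il2ra and Il15ra were found together in 50 of the 104 Il2ra barcodes of run 2 PEP-619WW, against 20.6 from the product of the shares.

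Other genes of the pathway, a list of 30 chosen with earlier results known, were counted the same way between genotypes. Of 180 pairs of gene and class 125 were measured and 30 were past 1.5-fold, 11 higher and 19 lower in PEP-619WW. In CD4 T barcodes 4 of 23 were past the fold, all higher and a share near the 13.5% of all genes: Il7r, the IL-7 receptor chain (115 and 211 CPM, log2 ratio 0.88), Stat5b, which carries the signal of several of these receptors (38.4 and 67.5, 0.81), Il21, the ligand of Il21r (29.7 and 61.9, 1.06), and the feedback inhibitor gene Cish (16.1 and 26.0, 0.69). Il2rb, at 0.55 in the same class, lay below the fold.

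In B barcodes 7 of 25 were past the fold, beside 9.15% of all genes. Lower were Socs1, an inhibitor of JAK kinases (101 and 60.7 CPM), Myc (71.2 and 43.6), Fcer2a, a target of IL-4 (48.6 and 22.6), Il9r (22.7 and 8.41) and Lta (11.8 and 6.09), and higher were Prdm1, a gene of plasma cell formation (18.9 and 32.7), and Il21 (0.506 and 1.67). Flt3+ H2-Aa-high barcodes had 8 of 24 past the fold, beside 10.5% of all genes. Higher there were Prdm1 (17.7 and 48.8 CPM) and Pim2 (5.68 and 10.6), and lower were Socs1 (66.7 and 42.4), Batf (44.2 and 25.4), Bcl3 (24.4 and 16.2), Socs3 (17.5 and 8.36), Il7r (14.3 and 8.92) and Lta (11.6 and 6.97). The other-cell markers given above for CD4 T, B and Flt3+ H2-Aa-high barcodes moved with these genes, and their part was not tested.

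Gzmb-high CD8 T barcodes had 7 of 25 past the fold, beside 8.92% of all genes. Erythroid genes summed to 1258 and 276 CPM there, plasma cell genes to 3037 and 4430 and neutrophil genes to 1911 and 1313, and 136 and 99 of the barcodes also met the B cell rule. The part of these was not tested. Socs1 (53.4 and 33.1 CPM), Bcl3 (23.7 and 15.5), Fcer2a (4.41 and 1.07), Il9r (3.31 and 0.969) and Lta (2.65 and 1.16) were lower. Jak3, whose product binds the common chain (10.8 and 17.1), and Il21 (2.53 and 4.65) were higher. Gzmb-zero CD8 T barcodes had 2 of 19, near the 7.97% of all genes, Stat5a (34.5 and 21.1) and Myc (48.9 and 29.5), both lower. NK barcodes had 2 of 9 beside 12.6%, Mcl1 higher (262 and 397) and Il7r lower (112 and 52.6). Without barcodes that carry a defining gene of another class the total was 14 in place of 30. That filter also removed counts: Flt3+ H2-Aa-high barcodes fell from 274 and 176 to 57 and 46. Fewer pairs could thus reach the minimum count. The pairs still measured and the share of all genes past the fold were not counted under it.

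Between Gzmb-high and Gzmb-zero CD8 T barcodes, 7 of 22 measured pathway genes were past the fold in the same direction in both genotypes, beside 5.45% of all genes. Lower in Gzmb-high barcodes were Il7r (185 and 27.6 CPM in PEP-WT, 169 and 38.5 in PEP-619WW), Bcl2, a survival gene (202.5 and 67.2, 195 and 76.0), Socs1 (83.7 and 53.4, 62.3 and 33.1), Socs3 (47.8 and 19.4, 37.9 and 15.8) and Pim2 (31.9 and 14.6, 31.2 and 15.9). Higher were Prdm1 (16.1 and 40.8, 24.4 and 53.9) and Cish (4.60 and 12.8, 6.74 and 15.8).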

How the data were processed

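Single cell RNA-seq counts were used as the authors deposited them: UMI counts of 32285 genes per barcode, made per the labels with Cell Ranger 6.0.0 against the mm10-2020-A reference (10x Genomics 3' v3.1 chemistry), with barcodes already called as cells. No normalization had been applied. The labels and protocol differ on the tissue, and the protocol was followed. Gene symbols were matched by identifier (32158 of 32285). The members, pathway list, marker lists and choice of run 1 were made with earlier results of these data known, run 1 because run 2 PEP-WT held 2 to 48 barcodes per class.

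Counts were summed per class and library and scaled to 1000000 UMIs (Python 3.11.15, NumPy 2.4.6, SciPy 1.17.1, matplotlib 3.10.9). Levels carry exact 95% Poisson intervals, ratios the exact conditional interval and shares the exact Clopper-Pearson interval. Zero counts were given a floor of 3 counts. A single library per group allowed no test, p-value or standard error. The 2 runs were kept apart and not treated as replicates. For shares, each barcode was thinned to 1000 UMIs with a fixed seed, leaving out shallower ones. Doublets were neither called nor removed by caller. Erythroid barcodes (at least 20% hemoglobin UMIs and no Cd3e, Cd79a, Ncr1 or Flt3) gave the background of free RNA. All members are named, pathway genes are named when past the fold between genotypes or, by Gzmb, in both genotypes, and the similar genes are the 3 with the highest correlation. On simulated counts 84% of 2-fold and 93% of 4-fold changes were recovered in CD4 T barcodes (8687 genes) and 96% and 98% in B barcodes (12686 genes), with 1.97% and 0.697% of unchanged genes past the fold. These counts were Poisson draws from 1 shared mean, the model behind the interval, without spread between cells, mice or libraries. The rates describe the rule under that model and are not error rates of the genotype comparison. Alternatives varied the run, scaling, barcode choice, depth, minimum count and fold. Clustering, doublet calling and protein sequences were not used here. Promoter windows of Il2rb and Il15 were not used here.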

Additional observations from a re-analysis of the deposited data

Results flagged for a closer look

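In barcodes outside the 6 classes, Il4ra in all 3 libraries compared, Il15ra in run 1 PEP-WT and Il15 in run 2 PEP-619WW had a counting interval that lay wholly above that of every class of the same library. Groups of barcodes outside the 6 classes were those with at least 1 UMI of Csf1r and those with at least 10 UMIs of S100a8, and they were compared with erythroid barcodes as a low control, where Il4ra was at 3.79 CPM in run 1 PEP-WT.

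In run 1 PEP-WT, Il4ra was at 70.3 CPM in Csf1r barcodes and 76.9 in S100a8 barcodes, beside an upper end of 58.1 in B barcodes. Il15ra was at 26.4 and 26.6 CPM in the same groups, beside 19.1 in CD4 T barcodes. In run 1 PEP-619WW, Il4ra was at 62.3 and 71.5 CPM, beside 55.8 in NK barcodes. In run 2 PEP-619WW, Il4ra was at 142 and 128 CPM, beside 108 in B barcodes, and Il15 at 22.8 and 105 CPM, beside 19.1 in cDC barcodes. Run 2 PEP-WT, with 5050 Csf1r barcodes, had 149.5 and 118 CPM of Il4ra and 12.7 and 81.4 of Il15, without enough class barcodes for the same comparison. These levels come from 1 library each. The share of all genes above every class in these groups was not computed. Sparse NK barcodes decided some cases. In run 1, Il15 in both groups and both genotypes overlapped only the NK interval, from 7 UMIs in PEP-WT and 0 in PEP-619WW. Il15ra in Csf1r barcodes of run 1 PEP-619WW likewise overlapped only that of NK barcodes, from 2 UMIs.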

How the results depend on the processing

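No paired analysis was possible because each genotype had 1 library, and for the same reason leaving out replicates was not done. All intervals cover counting error, so spread between mice is unknown, and genes with fewer than 30 UMIs over both groups were limited by depth. Of 415 single member values under the alternatives within run 1, 362 stayed within the interval of the reported value. The sign changed in 43, and in 3 of these the reported value had been past the fold. Where values moved, the cause was not tested. For the mean of each barcode's CPM, the interval was that of the summed UMIs, moved to the new ratio. It does not allow for the unequal weight of barcodes in such a mean, a limit on every call under that setting.

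The member pairs past 1.5-fold between genotypes, 1 as reported, were 6 in run 2, 3 with totals without immunoglobulin, hemoglobin, mitochondrial and ribosomal protein genes, 2 without barcodes carrying genes of another class, 3 without the deepest 5%, 4 with under 10 UMIs of Mt2, 4 by the mean of each barcode's CPM, 3 with thinning, 2 with no minimum count, 0 with a minimum of 100 UMIs and 2 without the interval. Members past the fold by Gzmb in both genotypes, 2 as reported, were 0 with thinning, at 2-fold and at 10 or more Gzmb UMIs, 1 with the reduced totals and 4 by the mean CPM. In run 2 they were 0, but there Il4ra (23 UMIs) and Il15ra (6 UMIs) were below the minimum count in PEP-WT, so neither could be past the fold. Pathway pairs, 30 as reported, were 14 without barcodes carrying genes of another class, 12 with thinning and 10 at 2-fold. The barcode filter and thinning also left fewer UMIs, so fewer pairs could reach the minimum count, and the pairs still measured were not counted. Members with the same highest class in both genotypes, 5 as reported, were 2 in the thinned draw.

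The sign was the opposite, with intervals that took in 0 each time, for Il15ra between genotypes in CD4 T barcodes by the mean CPM (log2 ratio 0.016) and with thinning (1.48), for Il15ra by Gzmb in PEP-WT with thinning (-0.17), and in run 2 for Il4ra by Gzmb in PEP-WT (0.030) and Il15ra by Gzmb in PEP-619WW (-0.56). The thinned values come from 1 random draw with few UMIs. In a second draw Il15ra was in 0.997% of 301 PEP-WT and 0.463% of 216 PEP-619WW CD4 T barcodes. By Gzmb it was in 0.206% of Gzmb-zero and 1.01% of Gzmb-high barcodes in PEP-WT, and in 2.48% and 0.825% in PEP-619WW. The first 2 pairs had the reported direction and the last had the opposite one, all with few barcodes. Over the settings within run 1, the log2 ratio of Il2rb between genotypes ranged from 0.56 to 0.94 in B, 0.22 to 0.61 in CD4 T and 0.32 to 0.63 in Gzmb-zero CD8 T barcodes.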
